A study of Homo sapiens with 4 samples.

Results

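The 8 genes described here make up a set of nuclear RNA genes: the long non-coding RNAs NEAT1, MALAT1 and MIAT, the paraspeckle proteins SFPQ, NONO and PSPC1, the RNA-binding protein TDP-43 (gene TARDBP) and the 3′ end factor CPSF6. They were picked by name from 58243 gene rows, and the choice was made with their difference between the groups already known. That difference is therefore given as a description. Whether a member passed the threshold of a fit is likewise only described and is not read as a test. MALAT1 is listed by the authors as MALAT1_1, under the identifier ENSG00000251562. A second row named MALAT1_2, for a short conserved segment inside the gene, was listed at 0 in all 4 libraries and is not a member.

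RNA was sequenced from SH-SY5Y, an established human neuroblastoma line of adrenergic, neuron-like character. The control group comprised 2 libraries, a and b, from control cells, which received no SNP. The SNP group comprised 2 libraries, also a and b, from cells treated for 8 h with sodium nitroprusside (SNP), which is a nitric oxide donor. Per the labels the treated cells had been differentiated with retinoic acid. Whether the control cells were differentiated as well is not stated here. If they were not, SNP and differentiation cannot be told apart in these libraries. The dose behind the sequenced libraries is not given, the RNA of the SNP group is called oxidized, and no step that selects oxidized molecules is described. The labels do not say whether a and b are separate cultures, so the spread between them, and the p-values that rest on it, may be technical. A single line and a single time were sampled. In such bulk samples, fewer cells of a kind and less RNA per cell cannot be told apart.

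Paraspeckles are nuclear bodies built on NEAT1. The gene yields a short, polyadenylated form and a long form that reads on through the 3′ end of the short one, and the long form is the scaffold around which SFPQ, NONO and PSPC1 assemble. CPSF6 is the larger subunit of cleavage factor Im, whose small subunit NUDT21 binds UGUA in RNA and favours cleavage at the short form's end. MALAT1, transcribed from the same stretch of chromosome 11, gathers in nuclear speckles beside splicing factors, and its 3′ end is not a poly(A) tail but a triple helix left when a tRNA-like RNA, mascRNA, is cut off. MIAT, also known as Gomafu, is a neuronal nuclear RNA with repeats that resemble the splicing branch point. TDP-43 prefers GU-rich RNA and is known for its inclusions in motor neuron disease.

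Stretches of the long RNAs are shown first because they hold the 3′ end and binding elements named above. They come from GENCODE 29 transcripts (GRCh38, plus strand, T for U), and motifs were searched on the RNA strand only. The first holds the 3′ end of the short NEAT1 form: of 8 annotated NEAT1 transcripts, 5 end inside it, between 65426385 and 65426513. Capitals mark TGTA, the letters bound by cleavage factor Im, and the poly(A) signal AATAAA.

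NEAT1 short-form end, chr11:65426361-65426520: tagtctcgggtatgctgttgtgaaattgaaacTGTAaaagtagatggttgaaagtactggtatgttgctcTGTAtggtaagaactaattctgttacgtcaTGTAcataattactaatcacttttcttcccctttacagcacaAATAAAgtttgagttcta

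The window has 3 copies of TGTA ahead of 1 AATAAA. Of 374308 windows of the same length cut end to end from the longest transcripts of the tested genes, 3.83% held at least as many TGTA. The second stretch lies in the part of NEAT1 that only the long form contains, and capitals mark TGTGTG, a run of the GU repeat that TDP-43 prefers.

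NEAT1 long-form GU repeat, chr11:65444254-65444353: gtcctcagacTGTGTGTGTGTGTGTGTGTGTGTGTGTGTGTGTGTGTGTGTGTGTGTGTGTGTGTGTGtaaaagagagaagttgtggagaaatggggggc

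This was the window of 100 bases with the most TGTGTG in NEAT1, with 27 overlapping matches. Of 603289 windows of that length cut at fixed places, 4 held as many. Those windows were not placed for the most matches, so the count does not measure how rare the stretch is. Over the whole long form there were 76 matches, or 3.34 per kilobase, above 98.3% of 14724 tested genes by their longest transcript, and 70.9% of those transcripts held the motif at least once. Among the other members CPSF6 had 14 matches, or 1.86 per kilobase, above 94.5% of genes. MIAT had 8, MALAT1 and TARDBP 4 each, NONO 2, and SFPQ and PSPC1 none. The third stretch is the MALAT1 3′ end, up to the base before mascRNA begins at 65506117. Capitals mark the 2 U-rich tracts, searched as 4 or more T on each side of at most 2 C or G, and the A-rich tract at the end, which pair in the triple helix.

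MALAT1 3′ end, chr11:65506007-65506116: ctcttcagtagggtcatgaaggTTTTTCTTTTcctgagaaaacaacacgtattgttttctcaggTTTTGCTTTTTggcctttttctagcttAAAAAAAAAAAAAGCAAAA

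Of 547777 windows of that length, 724, or 0.132%, held at least 2 such U-rich tracts. The search was written to match the 2 tracts of this stretch, so the share does not measure how rare they are. The last stretch is the MIAT window of 150 bases with the most ACTAAC, the branch-point-like repeat for which MIAT is known, in capitals.

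MIAT repeats, chr22:26671410-26671559: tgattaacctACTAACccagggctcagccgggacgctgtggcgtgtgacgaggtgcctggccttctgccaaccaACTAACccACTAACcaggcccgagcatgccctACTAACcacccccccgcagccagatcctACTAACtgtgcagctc

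It holds 5 copies, and of 399758 windows of the same length 1 held as many. The MIAT window was placed to hold the most copies and the others were cut at fixed places. That count therefore does not measure how rare the stretch is. The longest MIAT transcript has 14 ACTAAC, or 1.38 per kilobase, a rate above that of 99.6% of genes, while 28.6% of transcripts held the motif at all. These matches describe letters and show no binding.

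The depth of the tables limits the less abundant members little. Summed gene counts per library ran from 5613144 to 8056550, and 3 counts, taken as the floor, correspond to 0.372 to 0.534 CPM (counts scaled to library size, with TMM in the levels that follow). Of all genes, 14759 had enough counts to be tested, all 8 members among them. The line's adrenergic markers were counted in every library for 9 of 10 genes, with tyrosine hydroxylase (TH) listed at 0. Their summed level was 3325 and 3406 CPM in control and 2643 and 2806 CPM in SNP, with 2 markers called higher and 5 lower. Mesenchymal markers summed to 75.3 to 97.2 CPM, immune markers to at most 1.29 CPM with PTPRC and CD3E at 0, epithelial markers to at most 2.15 CPM and hepatocyte markers to at most 0.154 CPM. Whether the shift in adrenergic markers has a part in the members' values was not tested.

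In the control libraries the members differed widely per length. On the deposited RPKM scale (reads scaled per kilobase and by library depth), MALAT1 stood at 312 ± 21.7 (SD, n = 2), NEAT1 at 15.3 ± 2.69, SFPQ at 8.30 ± 1.01, NONO at 6.81 ± 0.574, CPSF6 at 6.16 ± 0.631, PSPC1 at 2.76 ± 0.0169, TARDBP at 2.65 ± 0.139 and MIAT at 1.04 ± 0.106. The intervals of mean ± SD overlapped for SFPQ and NONO, for NONO and CPSF6 and for PSPC1 and TARDBP. Control a was above control b in every member, so this spread is partly shared by the genes. The order held within each library. In control a and b SFPQ had 9.02 and 7.58, NONO 7.21 and 6.40, and CPSF6 6.61 and 5.72. PSPC1 had 2.77 and 2.74, and TARDBP 2.75 and 2.55. In deposited TPM, another per-length scale, SFPQ (320 ± 11.6), NONO (263 ± 0.408) and CPSF6 (238 ± 3.93) were apart. The TPM intervals of PSPC1 and TARDBP overlapped. MALAT1, NEAT1 and MIAT each stood apart from the next gene.

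The place of NEAT1 in that order depends on the gene model. Its deposited counts and RPKM imply a length of 2294 bases, against 22767 exonic bases in GENCODE 29. With the GENCODE length its control level was 12.6 CPM per kilobase, below the 67.8 CPM per kilobase of SFPQ. This scale divides by counted reads and not by the reads that RPKM implies, so its values cannot be set beside RPKM. SFPQ, whose length did not change, stood at 8.30 RPKM. The percentile of NEAT1 among counted genes went from 99.7 to 84.3. MALAT1 was likewise scaled to 4683 bases against 8829, MIAT to 11505 against 11829 and CPSF6 to 7190 against 8082. The lengths of SFPQ, NONO, PSPC1 and TARDBP matched. The short and long NEAT1 forms share 1 row, and which bases were counted for it is not given in the sources used here.

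NEAT1 (ENSG00000245532, chr11:65422774-65445540, plus strand, 1 merged exon) had the largest difference of the 8. It was counted 2000 times in control a and 1500 times in control b, against 11815 in SNP a and 12969 in SNP b. These counts were 308, 266, 1483 and 1677 CPM in that order. Both SNP libraries were far above both controls, and the libraries within a group differed little. The means were 287 ± 29.7 CPM (SD, n = 2) in control and 1580 ± 137 CPM in SNP, a log2 fold change of 2.46 (SE 0.099), or 5.51-fold. That fold change was above those of 99.6% of tested genes. Among all gene rows ordered by count, NEAT1 stood at place 482 and 622 in the control libraries and at 18 and 13 in the SNP libraries. Its share of all counts went from 0.0306% and 0.0267% to 0.147% and 0.170%. Rows for short RNAs annotated inside the gene, such as MIR612 and the conserved NEAT1 segments, were listed at 0.

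MALAT1 (chr11:65497688-65506516, plus strand, 1 merged exon) was the most abundant member throughout. Its counts were 77597 and 67687 in control and 169922 and 158993 in SNP, or 11935, 11985, 21334 and 20560 CPM. The control libraries were nearly equal and the groups did not overlap. The means were 11960 ± 35.4 CPM and 20947 ± 547 CPM, with a log2 fold change of 0.81 (SE 0.066), or 1.75-fold. MALAT1 was the second most counted gene row in both control libraries and the most counted in both SNP libraries. It took 1.19% and 1.21% of counts in control and 2.11% and 2.08% in SNP. With offsets that remove the trend of fold change with base composition and gene length, described further on, the log2 fold change was 0.058 (SE 0.060).

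MIAT (ENSG00000225783, chr22:26646428-26676475, plus strand, 12 merged exons) was counted 647 and 539 times in control and 1618 and 1299 times in SNP. Its levels were 99.5, 95.4, 203 and 168 CPM, so the SNP libraries were both higher and lay further apart than the controls. The means were 97.5 ± 2.88 and 186 ± 24.9 CPM, a log2 fold change of 0.93 (SE 0.112), or 1.90-fold. MIAT shares 2148 exonic bases with Z99774.1 on the other strand, which had at most 4 counts, and 221 bases with its neighbour MIATNB. MIATNB, which is no member, was counted 66 and 69 times in control, against 143 and 149 times in SNP, and rose by 0.74 on the log2 scale (adjusted p = 0.0106, edgeR quasi-likelihood). Whether counting used the strand is not given in the sources used here.

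**Figure D1:**
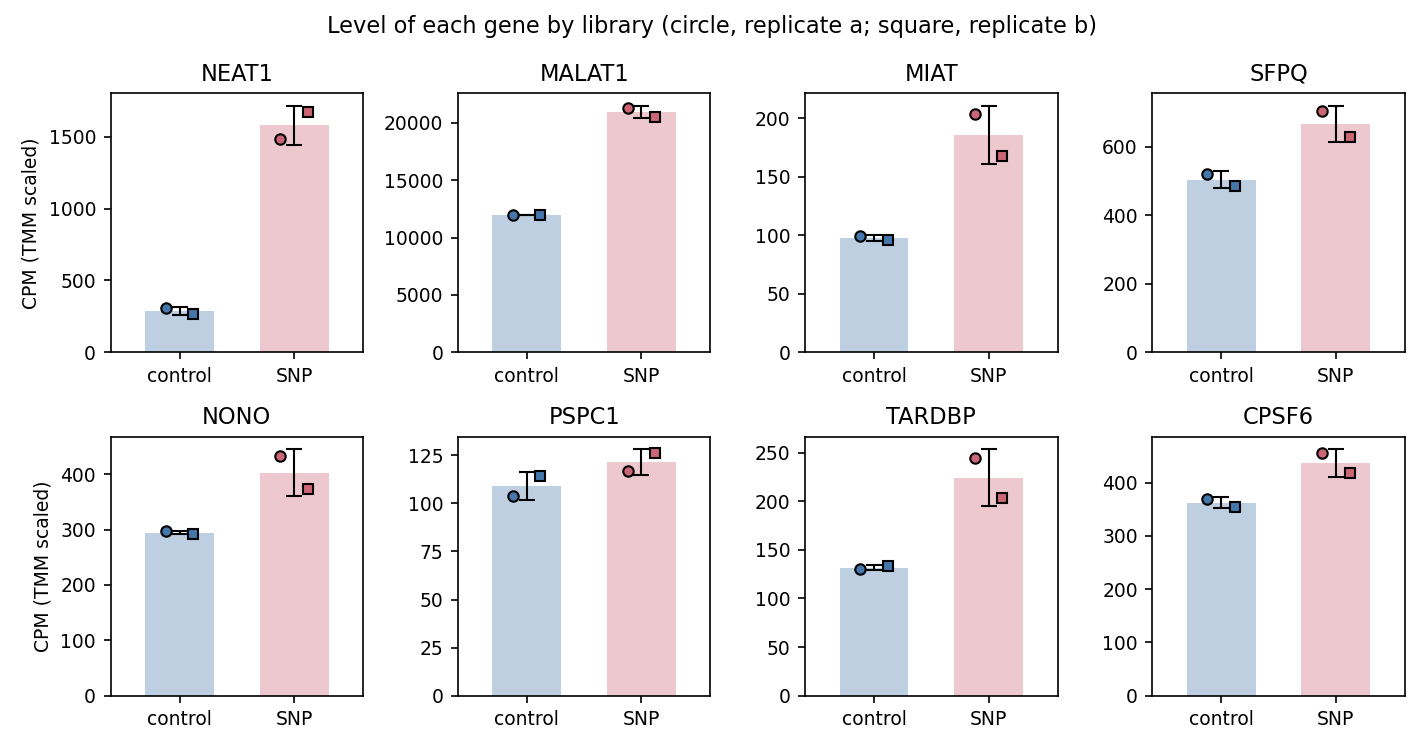
Level of each of the 8 genes in CPM (TMM scaled, linear axes that start at 0) by group. Bars are means, error bars SD (n = 2), circles replicate a and squares replicate b; both SNP points lie above both control points in each panel. As a fold change the gap is widest in NEAT1 (308 and 266 against 1483 and 1677 CPM) and narrowest in PSPC1 (104 and 114 against 117 and 126 CPM).

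SFPQ, NONO and PSPC1 are the DBHS (Drosophila behaviour/human splicing) proteins, which pair with each other and bind NEAT1. SFPQ (ENSG00000116560, chr1:35176378-35193148, minus strand) was counted 3390 and 2744 times in control, against 5604 and 4856 times in SNP. Its levels of 521 and 486 CPM became 704 and 628 CPM, a log2 fold change of 0.40 (SE 0.091). NONO (ENSG00000147140, chrX:71283192-71301168, plus strand) had 1932, 1650, 3446 and 2885 counts in the order control a, control b, SNP a and SNP b. The matching levels were 297, 292, 433 and 373 CPM, a log2 fold change of 0.45 (SE 0.096). The groups of both genes were apart, by margins little wider than the gap between the SNP libraries.

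PSPC1 (ENSG00000121390, chr13:19674752-19783019, minus strand) had 675, 644, 931 and 976 counts in the same order. Its levels were 104, 114, 117 and 126 CPM, so control b and SNP a nearly met. The log2 fold change was 0.16 (SE 0.108), the smallest of the 8. The SFPQ and PSPC1 differences went below 0 with the offsets for base composition described further on, and neither was past the threshold there. Its antisense gene PSPC1-AS2, which shares 36 exonic bases with it, had 2 to 5 counts. Of the summed RPKM of the 3 DBHS genes, SFPQ made up 47.5% and 45.3% in control and 47.2% and 46.7% in SNP. NONO made up 38.0% and 38.3% in control and 40.7% and 38.9% in SNP, and PSPC1 14.6% and 16.4% against 12.1% and 14.5%. The order of the 3 was the same in every library, and the SFPQ shares overlapped between the groups. NONO shares were higher in both SNP libraries than in both controls. PSPC1 shares were lower in both SNP libraries than in both controls, with control a and SNP b nearly equal.

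TARDBP (ENSG00000120948, chr1:11012344-11026420, plus strand) was counted 844 and 754 times in control and 1951 and 1576 times in SNP. Its levels were 130, 134, 245 and 204 CPM. Control libraries were close together and both SNP libraries well above them, with a log2 fold change of 0.77 (SE 0.107), or 1.70-fold. With the offsets for base composition described further on it was 0.18, or 1.13-fold, and no longer past the threshold. TARDBP shares 1760 exonic bases with AL109811.4, which had at most 4 counts. CPSF6 (ENSG00000111605, chr12:69239537-69274358, plus strand) was counted 2405 and 2002 times in control and 3621 and 3228 times in SNP. Its levels were 370, 354, 455 and 417 CPM, with a log2 fold change of 0.27 (SE 0.092), or 1.20-fold, and 0.098 with the same offsets. The CPSF6 groups were separate, and its longest transcript had 56 TGTA, or 7.44 per kilobase against a median of 3.42 over the tested genes.

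Of the 8 members, 7 were past the threshold in the upward direction (adjusted p under 0.05), none in the downward direction, and PSPC1 was past it in neither. In all 8 both SNP values were above both control values. In this comparison 26.2% of the 14759 tested genes were called. Of all tested genes 13.6% were called higher and 12.6% lower, and 31.7% had both SNP values above both control values, 32.3% both below and 64.0% groups that did not overlap in either direction. Of these calls 51.9% were upward, a share that became 63.1% with the read totals that the RPKM values imply, which moved the median of all genes to 0.064. The count of members past it was 6 without control replicate a, without control replicate b or without SNP replicate a, CPSF6 being the one that dropped out each time. The members were chosen with these values known, so nothing is read from their count. Their median log2 fold change was 0.61, beside -0.0042 over all tested genes. Of 490 tested lincRNA genes outside the set, 40 were higher and 30 lower, with a median of -0.011.

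The members share a base composition that was not a criterion of the choice; it is described without a test. Over the annotated transcripts of each gene, guanine exceeded cytosine in all 8. The excess was 7.59 percentage points of bases in MALAT1, 6.47 in TARDBP, 6.46 in NEAT1, 5.17 in SFPQ, 4.82 in PSPC1 and 4.64 in MIAT. These 6 genes lie in the top 10% of tested genes. CPSF6 and NONO both had an excess of 1.95, above 64.2% and 64.1% of genes, and the median over all tested genes was 1.04. The fold changes of the whole table followed this excess. In the 10% of genes with the least guanine over cytosine the median log2 fold change was -0.43, with 31 genes higher and 555 lower. In the top 10% it was 0.39, with 612 of 1473 genes higher, or 41.5%, and 25 lower.

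**Figure D2:**
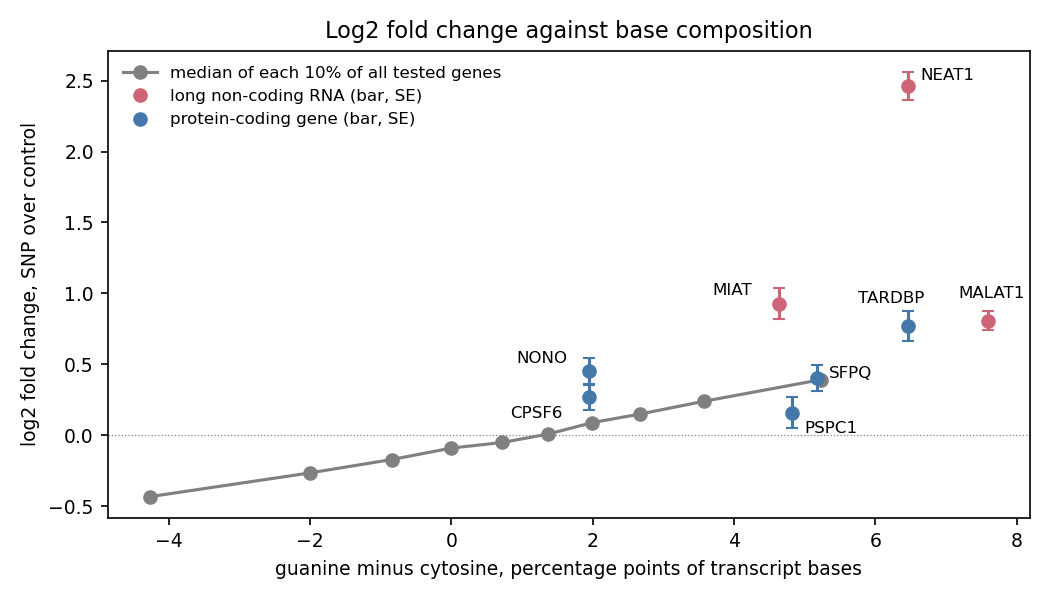
Log2 fold change, SNP over control, against guanine minus cytosine in percentage points of transcript bases. Grey points are the medians of successive 10% groups of all tested genes at their median composition, running from -0.43 to 0.39; coloured points are the 8 genes with SE bars, of which NEAT1 (2.46) lies farthest above the grey line and PSPC1 (0.16) lies below it.

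Offsets per library that take out the trends with transcript length, with GC content and with the excess of guanine over cytosine changed the picture for most members. Under them 18.9% of tested genes were called, and 8.39% of tested genes were called higher. NEAT1 stood at a log2 fold change of 1.95 (SE 0.088), or 3.85-fold. MIAT stood at 0.59 (SE 0.093) and NONO at 0.35 (SE 0.071). These were the 3 members past the threshold upward in that fit. TARDBP stood at 0.18, CPSF6 at 0.098 and MALAT1 at 0.058. SFPQ, at -0.057 (SE 0.057), and PSPC1, at -0.21 (SE 0.099), went below 0, and neither was past the threshold. NEAT1's own correction depends on its form. The excess of guanine is 12.0 percentage points in an annotated short transcript of 3441 bases and 3.20 in the long form of 22743 bases. With the length and composition of that short transcript, an alternative added after the data were seen, NEAT1's log2 fold change was 1.59. No other short transcript was tried. Offsets on length and GC content alone left NEAT1 at 2.46, MIAT at 0.96, MALAT1 and TARDBP at 0.64, NONO at 0.42, SFPQ at 0.29, PSPC1 at 0.10 and CPSF6 at 0.099. Why fold change follows base composition in these libraries was not tested.

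**Figure D3:**
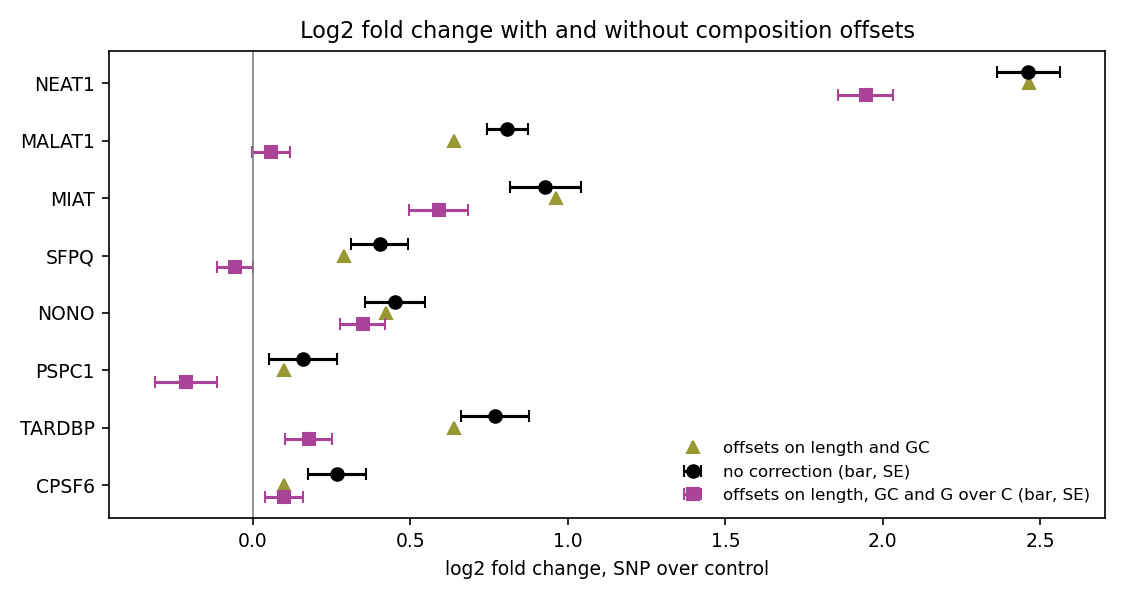
Log2 fold change, SNP over control, of the 8 genes without correction (circles), with offsets on length and GC content (triangles) and with offsets that also take in guanine over cytosine (squares), with SE bars for the first and last. NEAT1 goes from 2.46 to 1.95, MALAT1 from 0.81 to 0.058 and SFPQ from 0.40 to -0.057, while NONO goes from 0.45 to 0.35.

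The genes of 31 other paraspeckle proteins were taken from a list, and all were tested. Here and in the rest of the text a protein's name stands for its gene. The counts are of RNA and show neither protein levels nor what paraspeckles contain. In SNP 14 of the 31 were higher, or 45.2%, and 2 were lower, or 6.45%, with a list median of 0.29. Over all tested genes the shares were 13.6% higher and 12.6% lower. The lists here and below were chosen with earlier results of these data known, so nothing is read from their counts. HNRNPA1, a splicing regulator and the most abundant of the list by its mean over the 4 libraries though not in control, rose from 527 and 511 CPM to 1331 and 921 CPM, a log2 fold change of 1.12 (adjusted p = 1.2e-06). CIRBP, the cold-inducible RNA-binding protein, rose from 78.6 and 80.7 CPM to 194 and 143 CPM (log2 fold change 1.08, adjusted p = 4.0e-06). HNRNPH3 rose from 108 and 100 CPM to 225 and 174 CPM (0.94, adjusted p = 8.9e-06), but stood at -0.061 with the guanine-over-cytosine offsets. With those offsets 5 genes of the list were higher and 1 lower, with a median of 0.013. The list's median excess of guanine was 2.74 percentage points.

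Among 19 cleavage and polyadenylation factors beside CPSF6, 8 were higher, or 42.1%, and none was lower, with a median of 0.18. Across all tested genes 13.6% were higher and 12.6% lower. At an unadjusted p under 0.05, 8 were higher and 2 lower, and DESeq2 called 7 higher and none lower. Without control replicate a the count was 4, and without control replicate b it was also 4. PABPN1, the nuclear poly(A)-binding protein, rose from 66.4 and 56.0 CPM to 130 and 100.5 CPM, a log2 fold change of 0.91 (adjusted p = 4.0e-05); it shares 653 exonic bases with a read-through gene. CSTF3 rose from 38.0 and 37.2 CPM to 63.9 and 59.5 CPM (0.71, adjusted p = 3.5e-04), and CSTF2T had a log2 fold change of 0.61 (adjusted p = 0.0015); both belong to the cleavage stimulation factor, which binds downstream of the cut. The poly(A) polymerase PAPOLA, the most abundant of the list, had 388 and 378 CPM in control and 425 and 391 CPM in SNP (0.091, adjusted p = 0.50). With the guanine-over-cytosine offsets 3 of the list were higher and 1 lower, and CSTF3 was no longer past the threshold.

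RNAs of nuclear speckle proteins, the company of MALAT1, were higher in 14 of 24 cases, or 58.3%. They were lower in 3, or 12.5%, with a median of 0.38. The shares of all tested genes were 13.6% higher and 12.6% lower. The splicing-associated protein PNN rose from 42.1 and 39.8 CPM to 96.4 and 79.1 CPM, a log2 fold change of 1.10 (adjusted p = 4.1e-06). The kinase PRPF4B rose by 0.97 and the splicing factor SRSF5 by 0.77. SRRM2, a scaffold of speckles and the most abundant gene of the list, went the other way, from 1543 and 1483 CPM to 1052 and 1253 CPM (-0.39, adjusted p = 0.0027), and was not past the threshold without SNP replicate a (adjusted p = 0.067). With the guanine-over-cytosine offsets 6 were higher and 1 lower, the median was 0.12, and neither SRSF5 (0.097) nor SRRM2 (-0.067) was past the threshold. Without control replicate b 11 of the 24 were past it.

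Of 14 genes listed under MALAT1 end processing and stability, 1 was higher and 1 lower, and the median was -0.084. The share called in either direction was 14.3%, beside 26.2% of all tested genes. TRNT1, which adds CCA to tRNA ends and to mascRNA, had a log2 fold change of 0.63 (adjusted p = 0.0014). RPP30, a protein of RNase P, the enzyme that releases mascRNA, had -0.60 (adjusted p = 0.0085) and was not past the threshold without control replicate b (adjusted p = 0.073). DICER1, the most abundant of the list, for which no role at that end is claimed here, had 0.25 (adjusted p = 0.059). With the guanine-over-cytosine offsets edgeR called none of the 14, while 2 were higher and 2 lower at an unadjusted p under 0.05. Of 4 splicing factors reported to bind MIAT, SRSF1 rose by 0.41 (adjusted p = 0.0031), turning to -0.10 with those offsets. CELF3 had -0.36 (adjusted p = 0.037) and was not past the threshold without control replicate a, control replicate b or SNP replicate a, where adjusted p lay between 0.13 and 0.25. SF1, the branch-point binder, and QKI were not past it.

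Of 14 transcripts known as TDP-43 targets, 1 was higher and 3 were lower, with a median of -0.19. The share called in either direction was 28.6%, near the 26.2% of all tested genes. With the guanine-over-cytosine offsets 2 were higher and 5 lower, in a fit that called 18.9% of all tested genes. SORT1, a sorting receptor, fell from 147 and 147 CPM to 95.5 and 99.4 CPM, a log2 fold change of -0.59 (adjusted p = 2.7e-04). GPSM2, a regulator of spindle orientation, had -0.58 (adjusted p = 0.0017; 0.080 without control replicate a), and AGRN, the synapse organiser agrin, had 0.63 (adjusted p = 0.0013). STMN2, a regulator of microtubules and the most abundant of the list, had 596 and 609 CPM in control and 524 and 500.5 CPM in SNP (-0.23, adjusted p = 0.052). Spliced forms, where TDP-43 acts, cannot be seen in counts per gene. Of 9 tested RNA-binding proteins of motor neuron disease beside TDP-43, 5 were higher, or 55.6%, and none lower, with a median of 0.29. Among all tested genes 13.6% were higher. At an unadjusted p under 0.05, 7 were higher and none lower, and DESeq2 called 4 higher and none lower. Of the 10 listed, 5 also stand in the paraspeckle list, and the count was 3 without control replicate b. With the guanine-over-cytosine offsets 2 were higher and 1 lower, with a median of -0.032. HNRNPA2B1, a splicing and RNA transport factor, rose from 665 and 588 CPM to 1076 and 839.5 CPM (0.61, adjusted p = 2.1e-04), but stood at -0.14 with the guanine-over-cytosine offsets. Of the 3 A-to-I editing enzymes, whose edited RNAs paraspeckles can hold, none was past the threshold in edgeR's quasi-likelihood test or in DESeq2, and 1 was lower at an unadjusted p under 0.05 in each. ADAR, the most abundant, had -0.21 (adjusted p = 0.085).

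**Figure D4:**
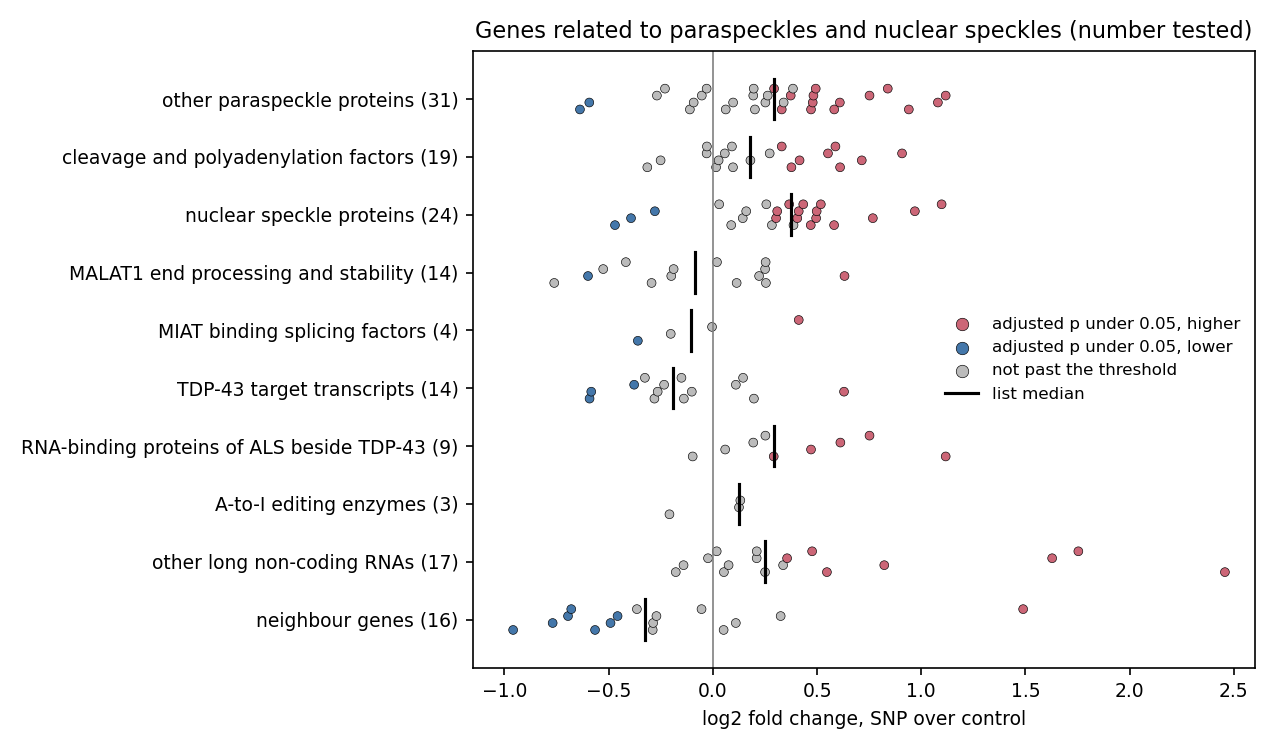
Log2 fold change, SNP over control, of each tested gene in 10 lists; the number tested is in brackets, colours mark an adjusted p under 0.05 in either direction and black bars are list medians. The bars stand at 0.29 for other paraspeckle proteins and 0.38 for nuclear speckle proteins, and at -0.33 for the neighbours of NEAT1 and MALAT1.

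Other well-known long non-coding RNAs were taken from a list of 25 names that point to 24 gene rows, of which 17 were tested. The authors label TUNAR and C1orf61, the row for the listed MIR9-1HG, as protein-coding, and both were tested. Of the 17 tested 7 were higher, or 41.2%, TUNAR among them, none was lower and the median was 0.25. Over all tested genes 13.6% were higher and 12.6% lower. With the guanine-over-cytosine offsets 8 were higher and none lower, where 8.39% of all tested genes were higher. At an unadjusted p under 0.05, 9 were higher and none lower. DESeq2 called 4 higher and none lower, and without control replicate b the count was also 4. PURPL rose from 7.23 and 10.1 CPM to 48.1 and 46.4 CPM, a log2 fold change of 2.46 (SE 0.185, adjusted p = 1.3e-08). H19, the imprinted RNA, rose from 64.4 and 80.4 CPM to 229 and 217 CPM (1.63, adjusted p = 7.1e-09). MEG8, another imprinted RNA, had 1.75 (adjusted p = 0.019) from at most 4.91 CPM, and was not past the threshold without control replicate b (adjusted p = 0.087) or SNP replicate b (adjusted p = 0.32). FTX, the most abundant tested, had 615 and 551 CPM in control and 551 and 596 CPM in SNP (-0.023). Among those not tested, NORAD, KCNQ1OT1 and HOTAIRM1, named here after their values were seen, were listed at 0 in all libraries. Such zeros, like that of TH, do not show that a gene is silent; whether they come from the counting was not tested.

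NEAT1 and MALAT1 lie 52147 bases apart, and 34 other gene rows lie within 200 kb of either. Of these 16 were tested, 1 was higher, or 6.25%, and 7 were lower, or 43.8%, with a median of -0.33. Among all tested genes 13.6% were higher and 12.6% lower. EHBP1L1, an actin-linked trafficking protein, rose from 18.9 and 16.3 CPM to 48.2 and 51.0 CPM, a log2 fold change of 1.49 (adjusted p = 1.0e-06). SSSCA1 had -0.96 (adjusted p = 0.012) and FAM89B -0.77 (adjusted p = 0.010). These last 2 genes share 1030 exonic bases and neither was past the threshold with the guanine-over-cytosine offsets. PCNX3, the most abundant neighbour, had -0.49 (adjusted p = 0.0033; 0.071 without control replicate b). With those offsets 1 neighbour was higher and 1 lower, and without control replicate a 5 were past the threshold. DESeq2 called 1 higher and 3 lower. The median excess of guanine over the neighbours was -2.61 percentage points, which is a deficit, against 6.46 in NEAT1 and 7.59 in MALAT1.

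**Figure D5:**
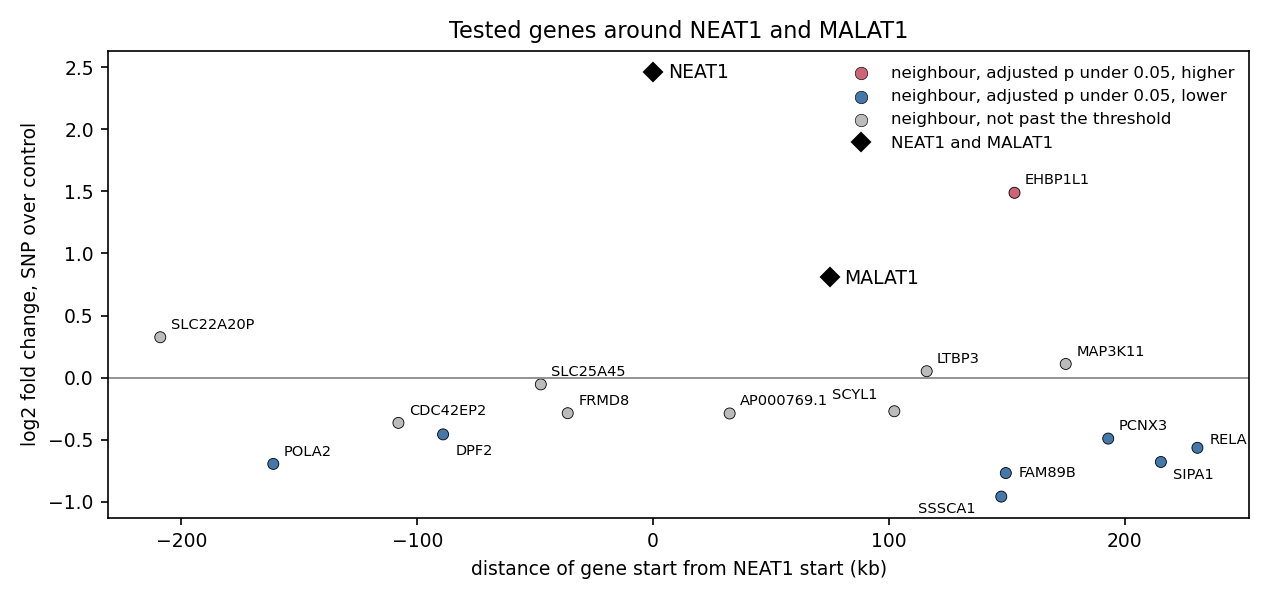
Log2 fold change, SNP over control, of the 16 tested genes around NEAT1 and MALAT1 against the distance of their start from the NEAT1 start, in kb along chromosome 11. NEAT1 (2.46) stands above every tested neighbour and MALAT1 (0.81) above all but EHBP1L1 (1.49); 7 neighbours were called lower.

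The genes whose pattern over the 4 libraries lay nearest to each long RNA were found by the Euclidean distance between centred log2 CPM values, over 12114 genes that averaged 5 CPM or more. With 4 libraries in 2 groups this mainly matches the size of the difference between groups. For NEAT1 they were LINC01979 (distance 0.195), GAS6-AS1 (0.307) and GDF15 (0.357). For MALAT1 they were GRIPAP1 (0.028), CDC37 (0.041) and ANKEF1 (0.043), and for MIAT CHGA (0.031), RAB1A (0.035) and GSPT2 (0.057). NEAT1's nearest genes lay farther off than those of the other 2 RNAs.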

How the data were processed

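The authors deposited, for each of 4 libraries, a table with raw whole-number counts per gene, a TPM column scaled to the library and an RPKM column scaled per kilobase and by reads, per the file headers. The build was GRCh38, per the submitters' processing notes. Aligner, counter, annotation and strand setting are not given in the sources used here. Whether the libraries were selected for poly(A) is not stated here. The levels of MALAT1 and of the long NEAT1 form beside those of mRNAs may depend on it. Counts were fitted with edgeR 4.0.16 in R 4.3.3 (filterByExpr, minimum count 10 and total 15, TMM, quasi-likelihood test, no covariate, all 4 libraries, Benjamini-Hochberg adjustment over all genes tested, threshold 0.05), and the fit was tested on simulated data. Positions, exon lengths and base composition came from GENCODE 29, whose exon length equalled the length implied by the deposited RPKM values in 88.9% to 89.1% of counted genes. The offsets came from lowess curves fitted to each library (span 0.5, 3 iterations). RPKM served for levels between genes and TPM as its alternative.

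The members and gene lists were chosen with earlier results of these data known. Named were all 8 members and, of each list and of the genes within 200 kb of NEAT1 or MALAT1, the 3 genes with the largest change past the threshold in groups that did not overlap and the gene with the highest mean CPM over the 4 libraries, with the 3 nearest patterns per long RNA; 1 gene that this rule names is not reported here. The alternatives were other filters, other scalings, DESeq2 1.42.0, the replicate letter as a block, the offsets and leaving out each library. The totals of counted reads were 11.5% to 13.3% of the reads that RPKM implies.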

Additional observations from a re-analysis of the deposited data

How the results depend on the processing

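All 8 members kept a positive log2 fold change in every fit except those with guanine-over-cytosine offsets (beside length and GC). There SFPQ stood at -0.057 (SE 0.057) and PSPC1 at -0.21 (SE 0.099), neither past the threshold. Those offsets moved NEAT1 to 1.95 (1.59 with its short form), MALAT1 to 0.058, MIAT to 0.59, TARDBP to 0.18 and CPSF6 to 0.098. Offsets on length and GC gave MALAT1 0.64, SFPQ 0.29 and CPSF6 0.099. Read totals implied by RPKM gave MALAT1 0.88, moved the median of all genes to 0.064 and made 2085 of 3303 calls higher, against 2002 of 3861. Genes called fell to 2415 with DESeq2 and ran from 2447 to 4152 when 1 library was left out. List genes called went from 56 to 34 with the guanine-over-cytosine offsets and ran from 36 to 64 without 1 library. Neighbours called went from 8 to 4 with DESeq2 and 2 with those offsets, and ran from 5 to 8. Without 1 library each, MALAT1 ran from 0.78 to 0.84, MIAT from 0.78 to 1.06, NONO from 0.34 to 0.56 and TARDBP from 0.63 to 0.90. HNRNPH3 (-0.061), SRSF1 (-0.10) and HNRNPA2B1 (-0.14) reversed with the guanine-over-cytosine offsets. CPSF6 lost its call with RPKM totals, with both kinds of offset and without control replicate a, control replicate b or SNP replicate a. The causes were not tested.

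The replicate letters were not shown to pair the libraries: the a-minus-b deviations of the groups correlated at 0.060 over genes. With the letter as a replicate block 4487 genes were called, NEAT1 stood at 2.46, MALAT1 at 0.81, MIAT at 0.92 and SFPQ at 0.40, and 7 members were past the threshold. With length and GC offsets and the replicate block together, MALAT1 stood at 0.64, SFPQ at 0.29 and CPSF6 at 0.099. The block also moved TDP-43 targets past the threshold from 4 to 7 and A-to-I editing enzymes from 0 to 1.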
